A study of Mus musculus with 12 samples.

Results

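Injured mouse lung that had received tpMSC was compared with untreated injured lung, by RNA sequencing of bulk lung tissue. The comparison took the 3 libraries labelled tpMSC and the 3 labelled ALI, which are 6 of the 12 libraries of the series, and every gene that passed a low-count filter on those 6 libraries, 21306 of the 38349 genes in the deposited table. The series also holds 3 libraries of uninjured lung, called Control, and 3 of injured lung that received MSC. The mice are labelled wild type, and the ALI, MSC and tpMSC groups share an acute lung injury that the series title attributes to hypoxia and lipopolysaccharide (LPS). The sources used here do not spell out tpMSC, and they give neither the animals' strain and age nor the source, dose, route and timing of the cells. Nothing in them states that each replicate is its own animal. The p-values therefore rest only on how far the 3 samples within each of the 4 groups differ, which may be technical.

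LPS is the outer membrane lipid of Gram-negative bacteria. The receptor pair Cd14 and Tlr4 detects it on macrophages and other cells and releases the transcription factor NF-kB from its inhibitor Nfkbia. NF-kB then switches on cytokines, chemokines and its own inhibitors. Chemokines such as Cxcl1 and Cxcl2 draw neutrophils out of the blood across endothelium that displays the selectins Sele and Selp. In the healthy lung the airspaces are patrolled by resident alveolar macrophages, and gas exchange depends on thin type 1 cells, surfactant-making type 2 cells and the capillary endothelium. Mesenchymal stromal cells, the usual meaning of MSC, are connective tissue cells studied for their release of factors that act on immune and barrier cells.

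The 12 libraries held between 53083002 and 70209229 counts on genes. Within the 6 libraries compared, the first principal component of log2 CPM values held 53.9% of the variance and placed the ALI libraries at -57.8, -54.0 and -63.1 and the tpMSC libraries at 66.6, 71.8 and 36.4. tpMSC replicate 3 stood apart from the other 2 and nearer to ALI, and results that turned on it are given with and without it. All 12 libraries carried the defining transcripts of lung: Sftpc, surfactant protein C, ranged from 3412 to 11439 FPKM, and Ager, a type 1 cell receptor, from 554 to 974. Levels are the deposited FPKM values, fragment counts scaled by transcript length and library size, so that levels of different genes can be set side by side. Log2 fold changes are tpMSC minus ALI from the counts, with their standard error (SE). A gene is said to have risen or fallen where edgeR's quasi-likelihood test gave a Benjamini-Hochberg adjusted p under 0.05 over all 21306 genes. In bulk tissue, fewer cells of a type and less RNA per cell cannot be told apart.

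Of the 21306 genes, 2730 rose (12.8%) and 2691 fell (12.6%) in tpMSC against ALI, together 25.4%. Each count of list members that rose or fell below is to be read beside these 2 shares. Changes of 2-fold or more were found for 674 of the genes that rose (3.16% of all tested) and 1057 of those that fell (4.96%), so that 68.1% of the changes were under 2-fold. The median log2 fold change over all genes was 0.01. The groups did not overlap for 41.6% of genes. The widest rises among genes of at least 1 FPKM included several genes that mark alveolar macrophages. Csf2ra, the GM-CSF receptor's binding chain, stood at 0, 0.1 and 0.21 FPKM in the 3 ALI libraries and at 11.1, 9.71 and 23.9 in tpMSC (log2 fold change 7.10 ± 1.59 SE, adjusted p = 0.00721; ENSMUSG00000059326, GRCm38 chromosome 19, 61223957 to 61228429). Its call was lost with limma-voom and sample quality weights (adjusted p = 0.17). Krt79, a keratin, stood at 0.02, 0.05 and 0.02 FPKM in ALI and 5.05, 3.87 and 3.21 in tpMSC (log2 fold change 6.90 ± 1.40 SE, adjusted p = 0.00413; ENSMUSG00000061397, GRCm38 chromosome 15, 101929332 to 101940324), and Fabp1, a fatty acid carrier, at 0.07, 0.43 and 0.07 in ALI and 3.83, 7.03 and 3.15 in tpMSC (log2 fold change 4.60 ± 0.83 SE, adjusted p = 0.00219). No ALI library reached the lowest tpMSC library for any of the 3. Other wide rises were those of the lipase Lipf, the sodium-proton exchanger Slc9a4, the basal keratin Krt14, Angptl7 and Trim29, with log2 fold changes of 5.78, 3.21, 3.07, 2.88 and 2.83.

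Among the widest falls were a neutrophil ligand, an amino acid oxidase and a matrix protease. Prok2, a secreted ligand made by neutrophils, stood at 5.16, 6.86 and 5.45 FPKM in ALI and at 0.04, 0.02 and 0.09 in tpMSC (log2 fold change -6.68 ± 0.44 SE, adjusted p = 2.42e-05; ENSMUSG00000030069, GRCm38 chromosome 6, 99711299 to 99726392). Il4i1, an amino acid oxidase of activated myeloid cells, stood at 23.1, 14.7 and 17.8 in ALI and 0.09, 0.07 and 0.63 in tpMSC (log2 fold change -6.09 ± 0.66 SE, adjusted p = 0.000119; ENSMUSG00000074141, GRCm38 chromosome 7, 44816387 to 44840809). Both genes were separated by more than the spread of either group. The stromelysin Mmp10 had 367 counts over the 3 ALI libraries and 4 over the 3 tpMSC libraries (adjusted p = 0.000623). Ambp, Ankrd22 and Ifitm6 had log2 fold changes of -5.05, -3.99 and -3.97. The stefin A genes Stfa2, Stfa3, Cstdc6 and Csta3 were also among the 15 widest falls. These lie in a family of near-identical copies, as do the eosinophil-associated ribonucleases Ear1 and Ear2 and the serum amyloid genes. Chil3, Tgtp2, Hba-a1 and Hspa1a also have close copies, and reads may have been split between copies, so their single values are uncertain.

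**Figure D1:**
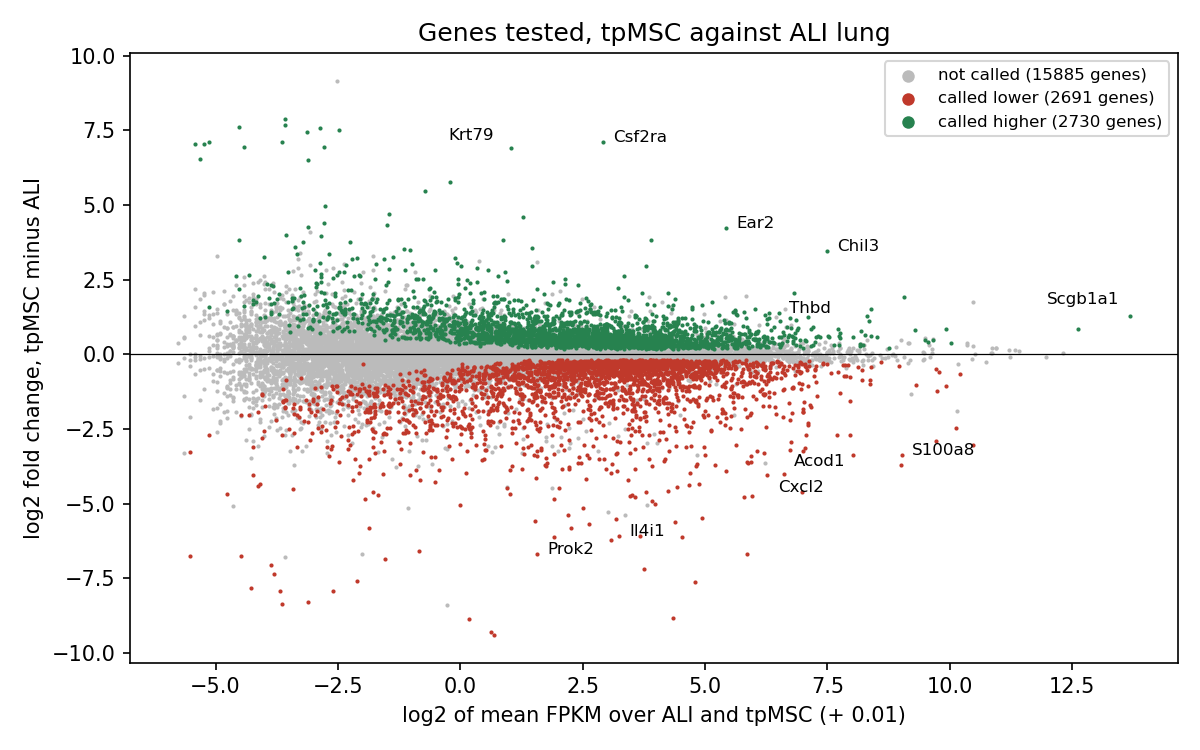
Log2 fold change of tpMSC against ALI (vertical axis) by mean expression over the 6 libraries (horizontal axis, log scale), 1 point per gene tested, with genes that rose or fell coloured. Among genes named in the text, the rises of Krt79, Csf2ra and Ear2 and the falls of Il4i1, Prok2, Cxcl2 and Acod1 lie far from the 0 line, and most of the 5421 changed genes lie within 2-fold of it.

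LPS detection and NF-kB response genes were lower in tpMSC than in ALI. Of 21 NF-kB target and inhibitor genes tested, 20 fell, against 12.6% of all genes, and their median log2 fold change was -1.45. Nfkbia, the inhibitor that NF-kB induces to stop itself, stood at 208, 239.9 and 214 FPKM in ALI and 59.1, 52.3 and 86.5 in tpMSC, with Control between 50.9 and 57.4 (log2 fold change -1.77 ± 0.16 SE, adjusted p = 5.19e-05; ENSMUSG00000021025, GRCm38 chromosome 12, 55489410 to 55492647). Tnfaip3, the ubiquitin-editing brake A20, stood at 36.2, 44 and 45 in ALI and 5.43, 5.74 and 12.8 in tpMSC (log2 fold change -2.41 ± 0.29 SE, adjusted p = 0.000217; ENSMUSG00000019850, GRCm38 chromosome 10, 19000910 to 19015657). The tpMSC libraries lay below every ALI library for both genes, and for Tnfaip3 they lay above every Control library (3.61 to 4.09). The subunit Rel, the co-activator Nfkbiz and the RNA-degrading brake Zc3h12a fell by 1.45, 1.59 and 1.74 on the log2 scale. Of 16 LPS-sensing genes, 12 fell. Cd14, the LPS co-receptor, stood at 406, 449 and 436 FPKM in ALI and 52.5, 45.6 and 102 in tpMSC (log2 fold change -2.71 ± 0.29 SE, adjusted p = 0.000119). Tlr4, the receptor itself, stood at 10.2, 11.2 and 9.93 in ALI and 6.35, 5.87 and 7.59 in tpMSC (log2 fold change -0.69 ± 0.12 SE, adjusted p = 0.00143). The lipoprotein receptor subunit Tlr1, the RNA sensor Tlr13 and the adaptor kinase Irak2 had log2 fold changes of -2.42, -2.07 and -0.97.

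Promoters of 3 genes that fell are printed to show where the letters of an NF-kB motif lie close to the start site: the inhibitor Nfkbia, the chemokine Cxcl1 and the cytokine Il6, whose levels follow. They were picked from named genes that hold a match, and named genes without a match are not shown. The windows are the 150 bases before each RefSeq start site (GRCm38.p6), 5′ to 3′ on the gene's strand, and capitals mark every match to GGGNNTTTC on either strand.
Nfkbia (chr12:55492648-55492797, minus strand): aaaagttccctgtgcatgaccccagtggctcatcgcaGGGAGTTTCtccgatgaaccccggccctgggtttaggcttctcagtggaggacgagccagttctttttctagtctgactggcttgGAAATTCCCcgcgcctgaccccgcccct
Cxcl1 (chr5:90891095-90891244, plus strand): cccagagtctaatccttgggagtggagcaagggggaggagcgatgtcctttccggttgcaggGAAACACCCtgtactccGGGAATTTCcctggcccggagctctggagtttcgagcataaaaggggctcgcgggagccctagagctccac
Il6 (chr5:30012964-30013113, plus strand): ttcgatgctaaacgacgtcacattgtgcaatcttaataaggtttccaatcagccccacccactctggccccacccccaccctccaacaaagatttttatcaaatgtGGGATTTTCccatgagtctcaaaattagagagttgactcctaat

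Counted from the start site, the matches in the printed bases begin at -113 and -28 in Nfkbia, at -88 and -71 in Cxcl1 and at -44 in Il6. Nfkbia held another match at 3, past the start site and outside the printed bases. Cxcl2 held matches at -97 and -78 and Tnfaip3 at -148 and -11. Genes that rose held matches too, Chil3 at -183 and Krt14 at -106. From 250 bases before to 50 after the start site, 27025 RefSeq promoters were searched on either strand, the first listed for each gene symbol. At least 1 match was held by 4.46% of these and by 4.5% of the 13364 that carry the symbol of a gene tested. For the 1057 genes that fell and the 674 that rose by 2-fold or more, 618 and 443 promoters were found by symbol. Genes without a promoter are left out of the shares given here. The share was 8.58% (53 of 618) among promoters of genes that fell by 2-fold or more. It was 4.74% (21 of 443) among those that rose by 2-fold or more. The AP-1 letters TGANTCA were in 5.84% of promoters of genes tested, 13.3% of those that fell by 2-fold or more and 6.09% of those that rose by 2-fold or more. The interferon response letters GAAANNGAA were in 7.48%, 12.3% and 6.09% of the same sets. The cyclic AMP response letters TGACGTCA were in 2.81%, 0.647% and 2.71%, the E-box letters CACGTGAC in 3.76%, 2.75% and 3.39%, and the E2F letters TTTCCCGC in 1.83%, 0.971% and 0.451%. These shares describe letters in a window, not sites or causes.

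Of 21 cytokine genes tested, 13 fell and 2 rose, against 12.6% and 12.8% of all genes (median log2 fold change -2.15). Tnf, the first cytokine of the LPS response, stood at 97.1, 116 and 122 FPKM in ALI and 6.77, 4.95 and 20.7 in tpMSC (log2 fold change -3.39 ± 0.43 SE, adjusted p = 0.000285; ENSMUSG00000024401, GRCm38 chromosome 17, 35199381 to 35202007). Il1b stood at 319, 346 and 408 in ALI and 39.3, 38.5 and 89.3 in tpMSC (log2 fold change -2.70 ± 0.32 SE, adjusted p = 0.000178), and Il6, the inducer of the acute phase response, at 15, 14 and 21.8 in ALI and 1.33, 2.94 and 2.38 in tpMSC (log2 fold change -2.94 ± 0.40 SE, adjusted p = 0.000399). Every tpMSC library was below every ALI library for the 3 genes, and tpMSC replicate 3 was the highest of its group for Tnf and Il1b. The tpMSC libraries lay above Control, where Tnf reached at most 0.84 FPKM. Csf3, the granulocyte growth factor G-CSF, fell by 4.22 on the log2 scale, and Csf2 (GM-CSF), Lif and the alarmin Il33 fell by 2.09, 2.27 and 1.34. The inflammasome substrate Il18 went the other way, from 3.22, 3.69 and 2.87 FPKM in ALI to 19.4, 16.7 and 10.3 in tpMSC (log2 fold change 2.21 ± 0.40 SE, adjusted p = 0.00232), against 16.5 to 21 in Control. The second cytokine that rose, Tslp (0.63), lost its call without ALI replicate 1, ALI replicate 2, ALI replicate 3, tpMSC replicate 1 or tpMSC replicate 2 (adjusted p up to 0.139).

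Chemokines that attract neutrophils were lower in tpMSC in 6 of 9 tested genes. Cxcl2 stood at 119.7, 171 and 148 FPKM in ALI and 6.32, 5.09 and 15.3 in tpMSC (log2 fold change -4.05 ± 0.39 SE, adjusted p = 6.18e-05; ENSMUSG00000058427, GRCm38 chromosome 5, 90903871 to 90905938), a 16.6-fold difference. Cxcl1 stood at 230.5, 228 and 232 in ALI and 12.7, 19.1 and 42.2 in tpMSC (log2 fold change -3.24 ± 0.41 SE, adjusted p = 0.000265), and the epithelial chemokine Cxcl5 at 249, 181 and 278 in ALI and 10.1, 14.2 and 57.3 in tpMSC (log2 fold change -3.13 ± 0.64 SE, adjusted p = 0.00416). The groups did not overlap for any of these, and tpMSC replicate 3 was again the highest of its group. Their receptor Cxcr2, carried by neutrophils, fell by 2.04 on the log2 scale. Of 24 genes for chemokines that draw monocytes and lymphocytes, 9 fell and 3 rose (1 without ALI replicate 1, ALI replicate 3, tpMSC replicate 1 or tpMSC replicate 2). Ccl3, Ccl4, Ccl2 and Ccl20 fell by 2.70, 3.04, 2.13 and 3.10. Cxcl13, the B cell attractant, was the most abundant of those named in ALI, at 402, 537 and 491 FPKM against 49.2, 32.7 and 60 in tpMSC (log2 fold change -3.36 ± 0.26 SE, adjusted p = 2.12e-05). Ccl21a, a lymphatic chemokine, rose from 26.4, 37.4 and 29.7 in ALI to 55, 52.6 and 58.1 in tpMSC (log2 fold change 0.80). The gene shares near-identical copies with its neighbours, so this value is uncertain.

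**Figure D2:**
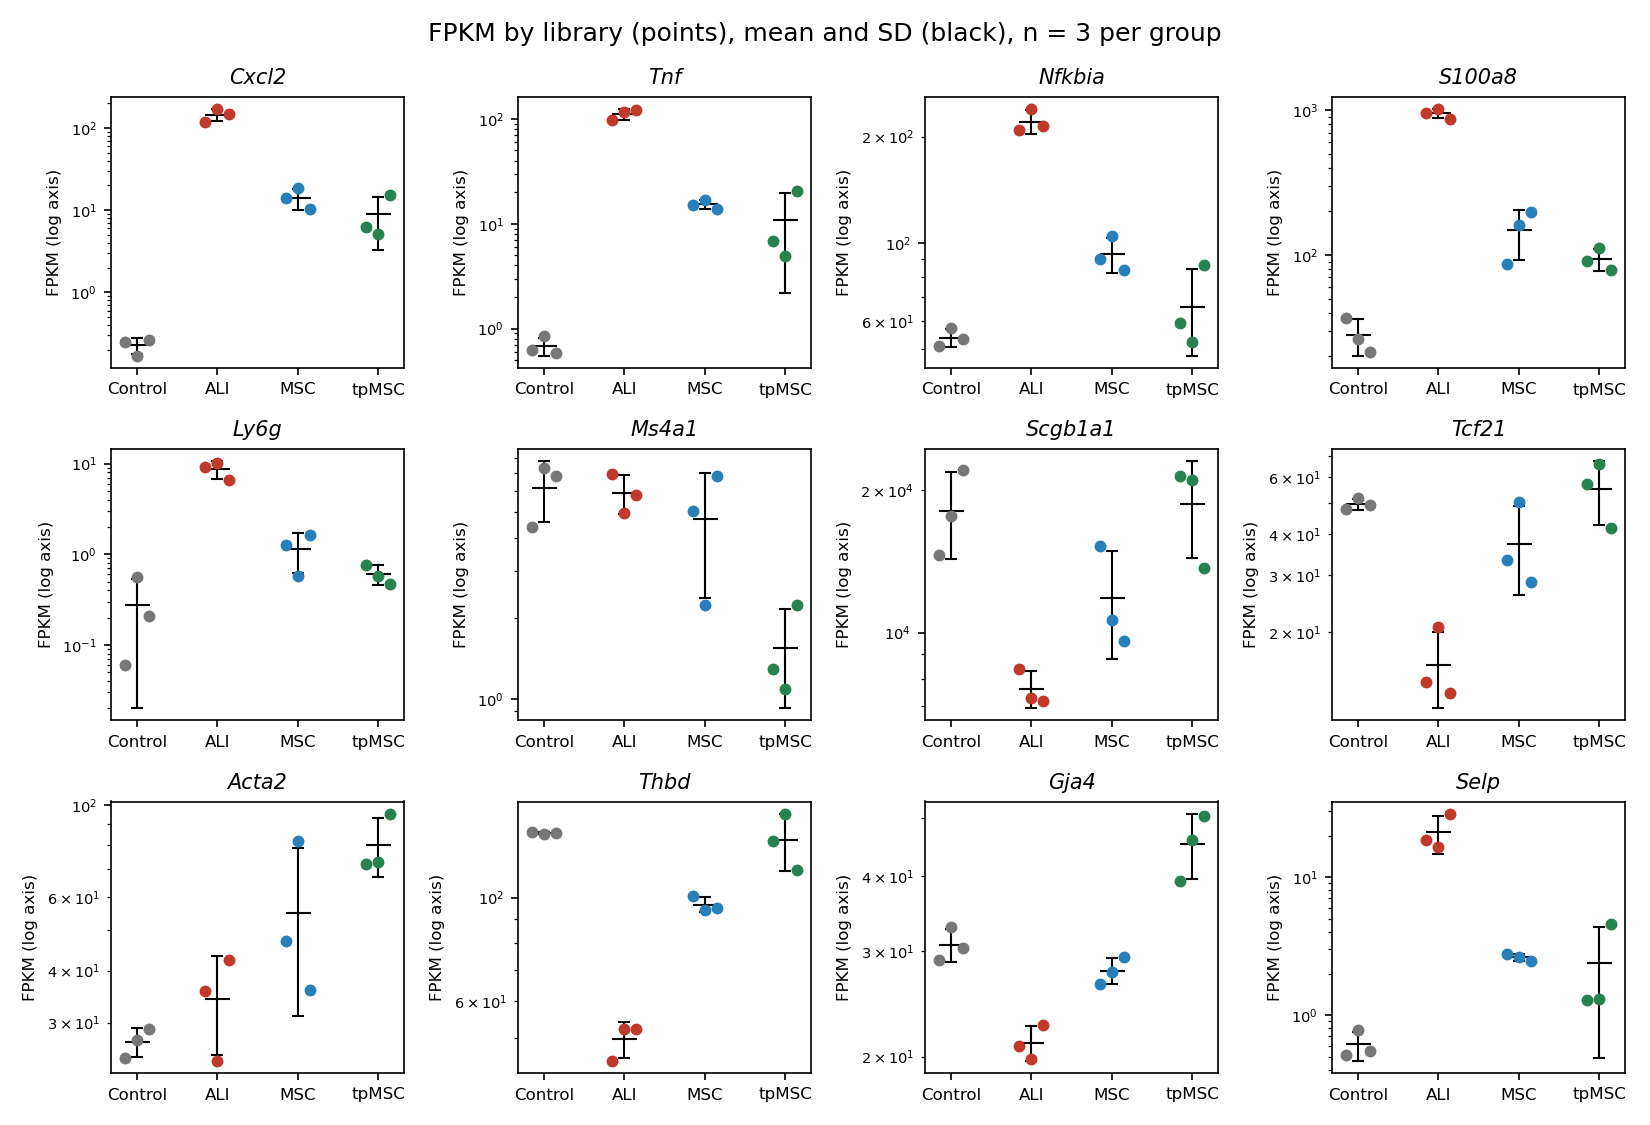
FPKM (vertical axes, log scale) of 12 genes in each of the 4 groups, with 1 point per library and the group mean ± SD (n = 3). Cxcl2, Tnf, Nfkbia, S100a8, Ly6g and Ms4a1 sit lower in all 3 tpMSC libraries than in any ALI library, and Scgb1a1, Tcf21, Acta2, Thbd and Gja4 are higher in tpMSC than in ALI.

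Of 23 neutrophil genes tested, 23 fell in tpMSC, with a median log2 fold change of -2.47. Their summed level was 5126, 5521 and 4931 FPKM in the ALI libraries and 709, 819.6 and 819 in tpMSC, against 225 to 314 in Control and 773 to 1319.6 in MSC. S100a8, a calcium-binding protein stored in neutrophil cytosol, stood at 951, 1018 and 874 FPKM in ALI and 90.7, 111 and 78.4 in tpMSC (log2 fold change -3.37 ± 0.29 SE, adjusted p = 3.81e-05; ENSMUSG00000056054, GRCm38 chromosome 3, 90668978 to 90670035). Its partner S100a9 stood at 2549, 2692 and 2394 in ALI and 302, 375 and 277 in tpMSC (log2 fold change -3.02 ± 0.30 SE, adjusted p = 7.89e-05). Ly6g, the surface marker used to sort mouse neutrophils, stood at 9.27, 10.2 and 6.61 in ALI and 0.77, 0.58 and 0.47 in tpMSC (log2 fold change -3.84 ± 0.55 SE, adjusted p = 0.000551), a level in tpMSC close to the 0.06 to 0.56 of Control. The amplifying receptor Trem1 fell by 3.07, the collagenase Mmp8 by 3.06 and histidine decarboxylase (Hdc) by 1.31 on the log2 scale. Of 7 tested genes for granule proteins made in immature neutrophils, 3 fell, among them Ngp (-3.06), and 1 rose. The riser was Chil3, which alveolar macrophages also make and which is described with them.

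Acute phase genes fell in 14 of 18 tested. Saa3, the serum amyloid made in lung, stood at 1566, 1442 and 1418 FPKM in ALI and 183, 136 and 288 in tpMSC (log2 fold change -2.89 ± 0.27 SE, adjusted p = 5.19e-05), while Control did not exceed 0.77. Lcn2, which binds bacterial siderophores, stood at 1878, 2106 and 1715 in ALI and 300.0, 253 and 490.3 in tpMSC (log2 fold change -2.47 ± 0.24 SE, adjusted p = 6.1e-05). For both, every tpMSC library lay between the Control and the ALI libraries. The protease inhibitor Serpina3n fell from 292, 314 and 318 in ALI to 124, 124 and 134 in tpMSC, and Lrg1 and ceruloplasmin (Cp) fell by 1.59 and 1.08 on the log2 scale. Of 15 immediate early genes, which many stimuli switch on within minutes, 10 fell, among them Junb (-1.62), Fos (-1.45) and Ier3 (-1.14), with log2 fold changes in parentheses. Of 14 inflammasome and pyroptosis genes, 6 fell (10 without tpMSC replicate 3), led by the sensor Nlrp3 at 32.4, 36.7 and 39 FPKM in ALI and 4.1, 3.48 and 10.8 in tpMSC (log2 fold change -2.58 ± 0.39 SE, adjusted p = 0.000735). Casp4, the mouse sensor of cytosolic LPS, fell by 1.41. Of 16 complement genes, 11 fell (7 without tpMSC replicate 2), among them the anaphylatoxin receptors C5ar1 (-1.90) and C3ar1 (-1.75).

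Interferon genes set tpMSC replicate 3 apart from the other tpMSC libraries. The summed level of the interferon-stimulated genes was 849, 977 and 877 FPKM in ALI and 487, 587 and 1140.0 in tpMSC, and that of the interferon gamma-induced GTPases was 356, 992 and 351 and 584, 813 and 1909. tpMSC replicate 3 had the highest sum of the 6 libraries in both, and ALI replicate 2 the highest GTPase sum among ALI. Of 24 interferon-stimulated genes, 1 fell with all libraries, namely Ifit3, an RNA-binding antiviral protein, at 102, 119 and 95.2 FPKM in ALI and 29, 28.5 and 71.4 in tpMSC (log2 fold change -1.31 ± 0.30 SE, adjusted p = 0.0082). Without tpMSC replicate 3, 20 of 24 fell, and with sample quality weights in limma-voom 16. Of 15 GTPases, none passed edgeR's quasi-likelihood test with all libraries, although 7 had an unadjusted p under 0.05. The number that rose was 10 without ALI replicate 2 and 3 without tpMSC replicate 1, and limma-voom with quality weights called 7 higher, limma on FPKM 3 and DESeq2 0. Tgtp2, one of them, stood at 26.6, 98.6 and 25.9 FPKM in ALI and 75.4, 97.7 and 197 in tpMSC (adjusted p = 0.0801). The interferon-induced chemokines Cxcl9 and Cxcl10 showed the same library. Cxcl10 stood at 10.4, 19.4 and 11.9 in ALI and 1.82, 3.27 and 47.8 in tpMSC, and its log2 fold change was 0.32 (adjusted p = 0.828) with all libraries and -2.48 (adjusted p = 0.00245, edgeR) without tpMSC replicate 3. Cxcl9 moved from 0.58 to -2.26 (adjusted p = 0.696 and 0.0111). Ido1, an interferon gamma-induced tryptophan enzyme, stood at 0.07, 3.84 and 0.33 in ALI and 0.97, 1.95 and 14.7 in tpMSC, with tpMSC replicate 3 alone above every ALI library.

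**Figure D3:**
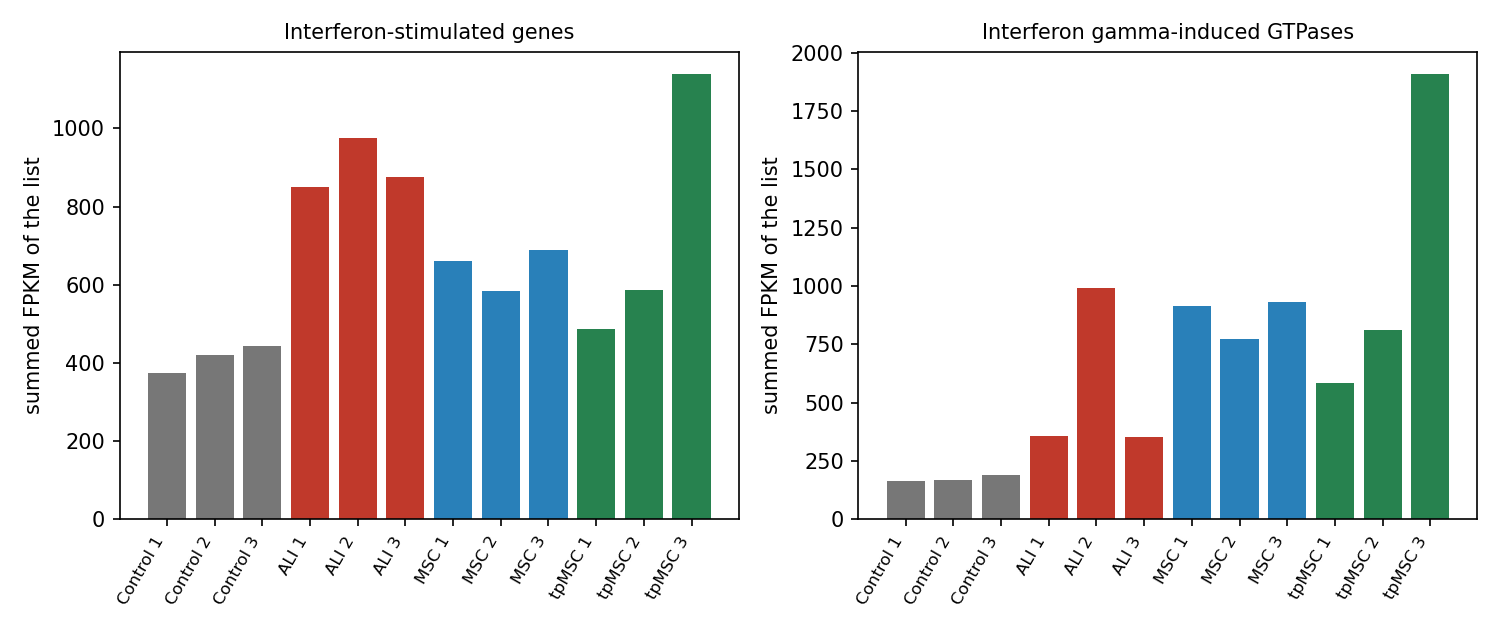
Summed FPKM (vertical axis) of the interferon-stimulated genes and of the interferon gamma-induced GTPases in each of the 12 libraries, 1 bar per library, coloured by group. tpMSC replicate 3 has the highest bar of its group in both lists, and ALI replicate 2 the highest GTPase bar of the ALI group.

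B cell genes fell in 12 of 13 tested, and the median log2 fold change was -1.63. Their sum was 169, 117 and 156 FPKM in ALI, 40.4, 38.3 and 52.2 in tpMSC, 105, 196 and 147 in Control and 108, 60.8 and 121 in MSC, so that all 3 tpMSC libraries lay under the other 9. Ms4a1, which encodes CD20, stood at 6.92, 4.98 and 5.82 in ALI and 1.29, 1.09 and 2.25 in tpMSC (log2 fold change -1.95 ± 0.38 SE, adjusted p = 0.00324). Fcer2a, the low-affinity IgE receptor of mature B cells, fell from 33.8, 31.7 and 31.4 in ALI to 3.64, 2.82 and 7.12 in tpMSC (log2 fold change -2.85 ± 0.33 SE, adjusted p = 0.000171). Of 11 plasma cell genes, 5 fell (2 without ALI replicate 3, tpMSC replicate 1 or tpMSC replicate 2 and 3 without ALI replicate 1 or tpMSC replicate 3). The IgM heavy chain constant gene Ighm stood at 218, 155 and 148 in ALI and 29.9, 27.6 and 57.1 in tpMSC (log2 fold change -2.21 ± 0.34 SE, adjusted p = 0.000807). Jchain, which joins secreted antibody, stood at 55, 66.3 and 122 in ALI, 4.26, 6.43 and 5.82 in tpMSC and 22.6, 32.9 and 646 in MSC, and its call against ALI (adjusted p = 0.0189) was lost without ALI replicate 3, tpMSC replicate 1 or tpMSC replicate 2 (adjusted p up to 0.0754). Of 10 MHC class II genes, 3 fell. The B cell members of that list, H2-Oa and H2-Ob, fell by 1.87 and 1.87, while H2-Ab1 was at 85.1, 71.3 and 76.4 in ALI and 67.2, 86.9 and 96.3 in tpMSC (log2 fold change 0.09, adjusted p = 0.753).

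More monocyte and interstitial macrophage genes fell than rose, while alveolar macrophage genes rose. Of 13 monocyte genes, 7 fell and 1 rose. Their summed level was 853, 922 and 926 FPKM in ALI and 791, 761 and 762 in tpMSC. Cd14, which is also in this list, held 406, 449 and 436 of these in ALI and 52.5, 45.6 and 102 in tpMSC. Ccr2, the receptor that brings monocytes out of marrow, stood at 20.7, 18 and 21.6 FPKM in ALI and 7.84, 6.67 and 12.2 in tpMSC (log2 fold change -1.19 ± 0.27 SE, adjusted p = 0.00714), and Treml4 of patrolling monocytes fell by 2.19. Ly6c2, a marker of classical monocytes, was at 22.9, 39.4 and 15.3 in ALI and 16, 32 and 27.2 in tpMSC (log2 fold change -0.07, adjusted p = 0.92). Of 14 interstitial macrophage genes, 8 fell and 1, the mannose receptor Mrc1 that alveolar macrophages share, rose. Ms4a7 stood at 14.1, 16.4 and 15.2 in ALI and 2.79, 1.47 and 2.33 in tpMSC (log2 fold change -2.82 ± 0.44 SE, adjusted p = 0.000895). The fractalkine receptor Cx3cr1 and complement C1qb fell by 1.51 and 0.89. Of 14 genes of lipid-associated macrophages, 8 fell (5 without tpMSC replicate 2), among them Trem2 (-1.31), Gpnmb (-1.54), Ctsb (-0.92) and Apoe (-0.86), with log2 fold changes in parentheses.

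Alveolar macrophage genes rose in 15 of 19 tested, against 12.8% of all genes, with a median log2 fold change of 1.67. Leaving out 1 library gave between 10 rises (without ALI replicate 1) and 14 (without tpMSC replicate 3). The summed level of the list was 156, 163 and 165 FPKM in ALI and 849.5, 748 and 612 in tpMSC, against 482 to 574 in Control. The 3 MSC libraries ranged from 174 to 1057, with replicate 3 near the ALI level. Ear2, a ribonuclease of alveolar macrophages and eosinophils, stood at 2.86, 4.75 and 5.23 in ALI, 93.9, 99.6 and 50.4 in tpMSC and 133, 126 and 109 in Control (log2 fold change 4.22 ± 0.97 SE, adjusted p = 0.00813; ENSMUSG00000072596, GRCm38 chromosome 14, 44102654 to 44103534). Atp6v0d2, a proton pump subunit, stood at 2.81, 3.27 and 3.2 in ALI and 28.3, 23.7 and 22.2 in tpMSC (log2 fold change 2.97 ± 0.46 SE, adjusted p = 0.000869), and Mrc1 at 6.28, 6.36 and 7.21 in ALI and 25, 21 and 18.4 in tpMSC (log2 fold change 1.67 ± 0.26 SE, adjusted p = 0.000892). For these 3 genes the groups did not overlap, and in tpMSC Ear2 lay below its Control range while Atp6v0d2 lay above its own (18 to 21.6). Chil3, a chitinase-like lectin, stood at 29.6, 24.5 and 33.9 in ALI, 402, 343 and 242 in tpMSC and 143, 114 and 93.5 in Control, so that it passed the Control level as well (log2 fold change 3.46 ± 0.88 SE, adjusted p = 0.0143). Its call and that of Ear1 (3.85) were lost at an adjusted p of 0.055 and 0.051 without ALI replicate 1, and that of Chil3 also without ALI replicate 2. Siglecf, the sorting marker of these cells, stood at 1.36, 0.94 and 1.27 in ALI and 5.02, 4.02 and 2.53 in tpMSC (log2 fold change 1.66, adjusted p = 0.0199), and its call was lost without ALI replicate 1, ALI replicate 2, ALI replicate 3, tpMSC replicate 1 or tpMSC replicate 2 (adjusted p up to 0.073). The scavenger receptor Marco was at 1.29, 0.79 and 0.75 in ALI and 3.26, 2.48 and 1.88 in tpMSC (adjusted p = 0.0786).

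**Figure D4:**
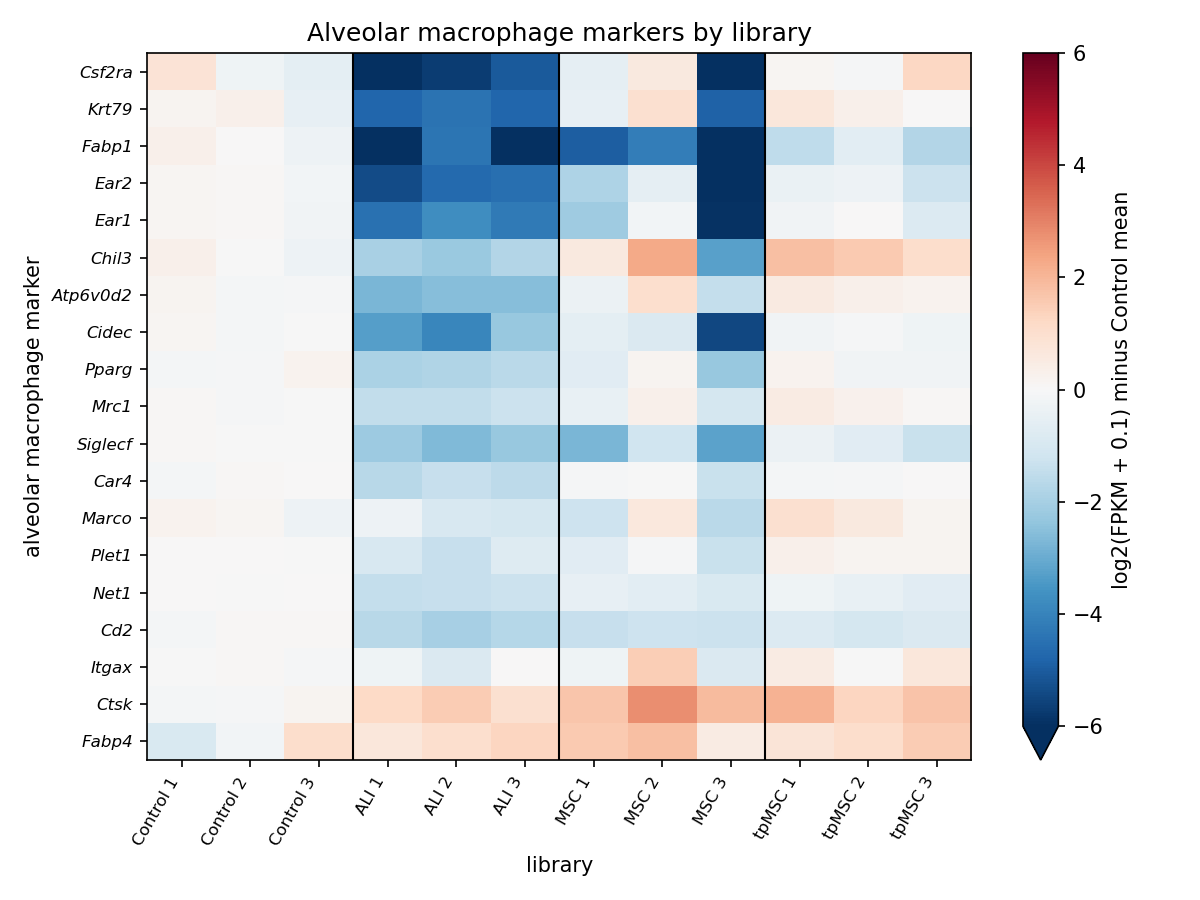
Heat map of alveolar macrophage genes (rows) in the 12 libraries (columns). Colour gives log2(FPKM + 0.1) minus the mean of the 3 Control libraries, with the colour scale ending at -6. The 3 ALI libraries and MSC replicate 3 are the lowest for most rows, and the 3 tpMSC libraries are near the Control level.

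Genes of alternative macrophage activation were split, with 4 of 14 higher (2 without ALI replicate 1) and 1 lower (3 without tpMSC replicate 3). The lectin Mgl2 stood at 1.45, 0.83 and 1.11 FPKM in ALI and 5.41, 7.32 and 6.04 in tpMSC (log2 fold change 2.43 ± 0.35 SE, adjusted p = 0.000547), and the interleukin 4 receptor Il4ra fell by 0.62. Retnla, a secreted product of such macrophages and of airway cells, was at 679, 344 and 902 in ALI and 2817, 2925 and 853 in tpMSC (adjusted p = 0.0514), and tpMSC replicate 3 lay inside the ALI range. T cell genes showed 1 fall of 18 tested (4 without tpMSC replicate 3), Il7r, the interleukin 7 receptor (log2 fold change -1.10 ± 0.17 SE, adjusted p = 0.000933). The T cell receptor subunit Cd3e was at 1.35, 1.46 and 1.46 in ALI and 1.46, 1.32 and 1.14 in tpMSC (adjusted p = 0.652). Of 12 natural killer and cytotoxic genes 2 rose (0 without ALI replicate 1, ALI replicate 3 or tpMSC replicate 3 and 4 without ALI replicate 2), the pore former Prf1 (1.24) and the granzyme Gzma (1.15). Of 14 dendritic cell genes, 2 rose and 2 fell, near the 12.8% and 12.6% of all genes. The rises were 0 without ALI replicate 1, ALI replicate 2, tpMSC replicate 1 or tpMSC replicate 2, and the falls 4 without tpMSC replicate 3. The growth factor receptor Flt3 was among those that fell (-1.56). Of 11 mast cell, basophil and eosinophil genes 2 rose (0 without ALI replicate 1, ALI replicate 2 or tpMSC replicate 2) and 1 fell. Platelet genes showed 1 rise and 2 falls of 12, and erythroid genes 1 of each of 12. The haemoglobin gene Hba-a1 was at 715, 568 and 685 in ALI and 885, 1248 and 731 in tpMSC (adjusted p = 0.153).

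Among endothelial genes, the selectins fell and thrombomodulin and the arterial connexins rose. Selp, the selectin on which neutrophils first roll, stood at 18.6, 16.5 and 28.8 FPKM in ALI and 1.28, 1.31 and 4.61 in tpMSC (log2 fold change -3.16 ± 0.45 SE, adjusted p = 0.000516; ENSMUSG00000026580, GRCm38 chromosome 1, 164115264 to 164150026), against 0.51 to 0.78 in Control. Sele stood at 3.66, 4.55 and 6.28 in ALI and 0.21, 0.46 and 1.13 in tpMSC (log2 fold change -3.02 ± 0.49 SE, adjusted p = 0.00114). Thbd, thrombomodulin, the anticoagulant receptor on the vessel wall, went from 44.8, 52.3 and 52.2 in ALI to 132, 151 and 114 in tpMSC (log2 fold change 1.39 ± 0.10 SE, adjusted p = 1.62e-05; ENSMUSG00000074743, GRCm38 chromosome 2, 148404466 to 148408188), with Control at 138, 137 and 138. All 3 tpMSC libraries were above every ALI library and lay on both sides of the Control values. Tissue factor (F3) and coagulation factor X (F10), on the procoagulant side, fell by 0.67 and 2.38. The whole list of endothelial adhesion and anticoagulant genes held 6 lower and 5 higher of 18 (3 without ALI replicate 1 or tpMSC replicate 2), and that of coagulation 7 lower and 3 higher of 17 (1 without ALI replicate 1, tpMSC replicate 1 or tpMSC replicate 2).

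Of 14 genes of aerocytes, the capillary cells that carry out gas exchange, 8 rose. Car4, a carbonic anhydrase shared with alveolar macrophages, stood at 23.7, 28.3 and 24.7 in ALI and 69.6, 72.1 and 74.6 in tpMSC (log2 fold change 1.47 ± 0.25 SE, adjusted p = 0.00163), and Tbx2, Fibin, Ednrb and Prx rose by 0.96, 1.05, 0.98 and 0.75 on the log2 scale. Of 15 general capillary genes, 1 fell and 7 rose (3 without ALI replicate 1, ALI replicate 2 or tpMSC replicate 2 and 4 without tpMSC replicate 3). Sema3c rose by 1.06, and the chemokine Cxcl12 fell by 0.88. Angiopoietin, VEGF and BMP signalling genes rose in 14 of 20 (9 without ALI replicate 1 or tpMSC replicate 2), with 1 lower. Tek, the angiopoietin receptor, stood at 25, 34.1 and 26.7 in ALI, 49.3, 53.6 and 49.8 in tpMSC and 88.4 to 96.9 in Control (log2 fold change 0.81 ± 0.16 SE, adjusted p = 0.00352). Bmp6 stood at 9.41, 8.82 and 9.04 in ALI and 25.4, 24.1 and 18.8 in tpMSC (2.46-fold higher, adjusted p = 0.000501), and Vegfd rose by 1.52. Vegfa and Angpt2 did not pass the test (adjusted p = 0.0705 and 0.645). Of 16 arterial and venous genes, 3 fell and 8 rose (4 without tpMSC replicate 1 or tpMSC replicate 2 and 5 without ALI replicate 1 or ALI replicate 3). The arterial connexins Gja4 and Gja5 rose by 1.08 and 1.05. Gja4 stood at 20.9, 19.8 and 22.6 in ALI and 39.2, 45.9 and 50.5 in tpMSC, above the 29 to 32.9 of Control (log2 fold change 1.08 ± 0.10 SE, adjusted p = 5.16e-05; ENSMUSG00000050234, GRCm38 chromosome 4, 127311421 to 127314039). Of 9 lymphatic genes, 3 rose and 1, Pdpn, which type 1 cells share, fell.

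Epithelial genes moved in both directions, beside 12.8% higher and 12.6% lower over all genes. Of 16 club and secretory cell genes, 6 rose and 1 fell (0 without any 1 library, and 0 with limma on log2(FPKM + 1)). Scgb1a1, the club cell secretory protein and the most abundant transcript among those named, stood at 8386, 7270.1 and 7170.4 FPKM in ALI, 21329, 20948 and 13711 in tpMSC and 14573, 17618 and 22027 in Control (log2 fold change 1.27 ± 0.21 SE, adjusted p = 0.00132; ENSMUSG00000024653, GRCm38 chromosome 19, 9083636 to 9087958), and its call was lost with limma on log2(FPKM + 1) (adjusted p = 0.25). Cyp2f2, the club cell cytochrome, stood at 190.4, 180.1 and 148 in ALI and 569.8, 401 and 523 in tpMSC (log2 fold change 1.50 ± 0.26 SE, adjusted p = 0.00163), and Aldh1a1 rose by 0.89. Of 15 ciliated cell genes, 5 rose (2 without ALI replicate 2 or tpMSC replicate 1 and 3 without ALI replicate 1 or tpMSC replicate 3), including Tppp3 (1.03). Of 15 type 1 cell genes, 7 rose and 1 fell. Ager stood at 674, 686 and 554 in ALI and 908, 874 and 808 in tpMSC (log2 fold change 0.41 ± 0.10 SE, adjusted p = 0.00868), the regulator Hopx rose by 0.59 and Rtkn2 by 0.91, while Pdpn fell by 0.60. Type 2 cell genes were split, 5 lower and 4 higher of 18 (2 without ALI replicate 3). Sftpc rose from 4268, 5658 and 3412 in ALI to 8999.9, 8925 and 6706 in tpMSC (log2 fold change 0.86 ± 0.17 SE, adjusted p = 0.00364; adjusted p = 0.221 with limma on log2(FPKM + 1)). Sftpd, a surfactant collectin of innate defence, fell from 871, 996 and 665 in ALI to 433, 387 and 458 in tpMSC (log2 fold change -1.01 ± 0.16 SE, adjusted p = 0.00108), and Lamp3 of the lamellar bodies fell by 0.71. Among 14 fluid clearance genes 3 rose and 4 fell (1 without ALI replicate 1 and 2 without tpMSC replicate 1 or tpMSC replicate 2). The water channel Aqp1, which endothelium also carries, rose by 0.84 and the sodium channel subunit Scnn1b by 0.36, the anion exchanger Slc26a4 fell by 2.44, and the channel's alpha subunit Scnn1a did not pass the test (-0.06, adjusted p = 0.65). Of 15 genes of transitional alveolar cells, which appear as type 2 cells become type 1 cells, 4 fell (2 without ALI replicate 1, ALI replicate 3 or tpMSC replicate 1), among them Clu (-0.73) and Nupr1 (-0.63). Krt8, the marker keratin of that state, was at 117, 99.3 and 108 in ALI and 95.5, 90.2 and 104 in tpMSC (adjusted p = 0.15). Tight and adherens junction genes showed 4 higher (1 without ALI replicate 1, ALI replicate 2 or tpMSC replicate 2) and 3 lower (0 without tpMSC replicate 2 and 1 without ALI replicate 1 or tpMSC replicate 1) of 15, and Cldn5 of endothelium rose by 0.59. Of 6 tested basal cell and keratin genes, 1 rose and 2 fell. Krt14 stood at 0.08, 0.38 and 0.12 in ALI, 2.79, 1.48 and 0.82 in tpMSC and 0.07, 0.23 and 0.17 in Control (log2 fold change 3.07 ± 0.71 SE, adjusted p = 0.00888), and the glycerol channel Aqp3 fell by 3.34.

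Alveolar fibroblast genes rose in 11 of 14 tested (median log2 fold change 0.78). Tcf21, the transcription factor of lipofibroblasts, stood at 14, 20.7 and 12.9 FPKM in ALI, 57.4, 65.9 and 41.9 in tpMSC and 47.9, 51.7 and 49.3 in Control (log2 fold change 1.77 ± 0.24 SE, adjusted p = 0.000398; ENSMUSG00000045680, GRCm38 chromosome 10, 22817281 to 22820174). Inmt, a methyltransferase, stood at 189, 319 and 157 in ALI and 982, 1039 and 526 in tpMSC (log2 fold change 1.91 ± 0.30 SE, adjusted p = 0.000934), and the growth factor receptor Fgfr4 and the integrin Itga8 rose by 2.06 and 1.65. tpMSC replicate 3 was the lowest of its group for Tcf21 and Inmt and was above every ALI library. Pdgfra, a receptor common to lung fibroblasts, is a member that did not rise. Smooth muscle and pericyte genes rose in 15 of 18, and their sum of 422, 419.9 and 445 FPKM in tpMSC was above every ALI (207 to 241), Control (297 to 322) and MSC library (280.3 to 383). Acta2, smooth muscle actin, stood at 35.8, 24.3 and 42.4 in ALI, 72.1, 73.1 and 95.2 in tpMSC and 24.6, 27.3 and 29 in Control (log2 fold change 1.21 ± 0.27 SE, adjusted p = 0.00716; ENSMUSG00000035783, GRCm38 chromosome 19, 34241090 to 34255590). Tagln stood at 27.6, 20.4 and 29.2 in ALI and 73.8, 70.5 and 70.8 in tpMSC (log2 fold change 1.46 ± 0.23 SE, adjusted p = 0.00091), and smooth muscle myosin Myh11 rose by 1.11. In adventitial fibroblasts 2 genes rose and 1, Il33, fell of 12. In mesothelium, the surface layer of the lung, 4 of 8 rose, among them Upk3b (1.61).

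Matrix genes were split, with 5 lower and 6 higher of 21 (3 without ALI replicate 1 or tpMSC replicate 1). Postn, periostin, rose from 29.2, 34.4 and 32 in ALI to 58.7, 52.4 and 61.1 in tpMSC (log2 fold change 0.82 ± 0.10 SE, adjusted p = 0.000217), and Cthrc1 rose by 1.52. Elastin (Eln) stood at 31.9, 57.6 and 37.3 in ALI and 134, 84 and 101 in tpMSC (2.47-fold higher, adjusted p = 0.0136), a call lost without ALI replicate 1, ALI replicate 3 or tpMSC replicate 1. The fibrillar collagen gene Col1a1 was at 29, 29.3 and 40 in ALI and 62, 43.8 and 57 in tpMSC (adjusted p = 0.0671). Timp1, the inhibitor of matrix proteases, fell from 223, 148 and 275 in ALI to 56.2, 61 and 84.9 in tpMSC (log2 fold change -1.70 ± 0.22 SE, adjusted p = 0.00031). The proteases themselves fell in 8 of 14. Mmp3, stromelysin 1, stood at 60, 53.3 and 83.8 in ALI and 15.4, 14.4 and 12.1 in tpMSC (log2 fold change -2.26 ± 0.19 SE, adjusted p = 3.04e-05), and gelatinase B (Mmp9) and Adam8 fell by 1.80 and 1.66. Gelatinase A (Mmp2) was the member that rose (0.46), a call lost without ALI replicate 1 (adjusted p = 0.0564).

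**Figure D5:**
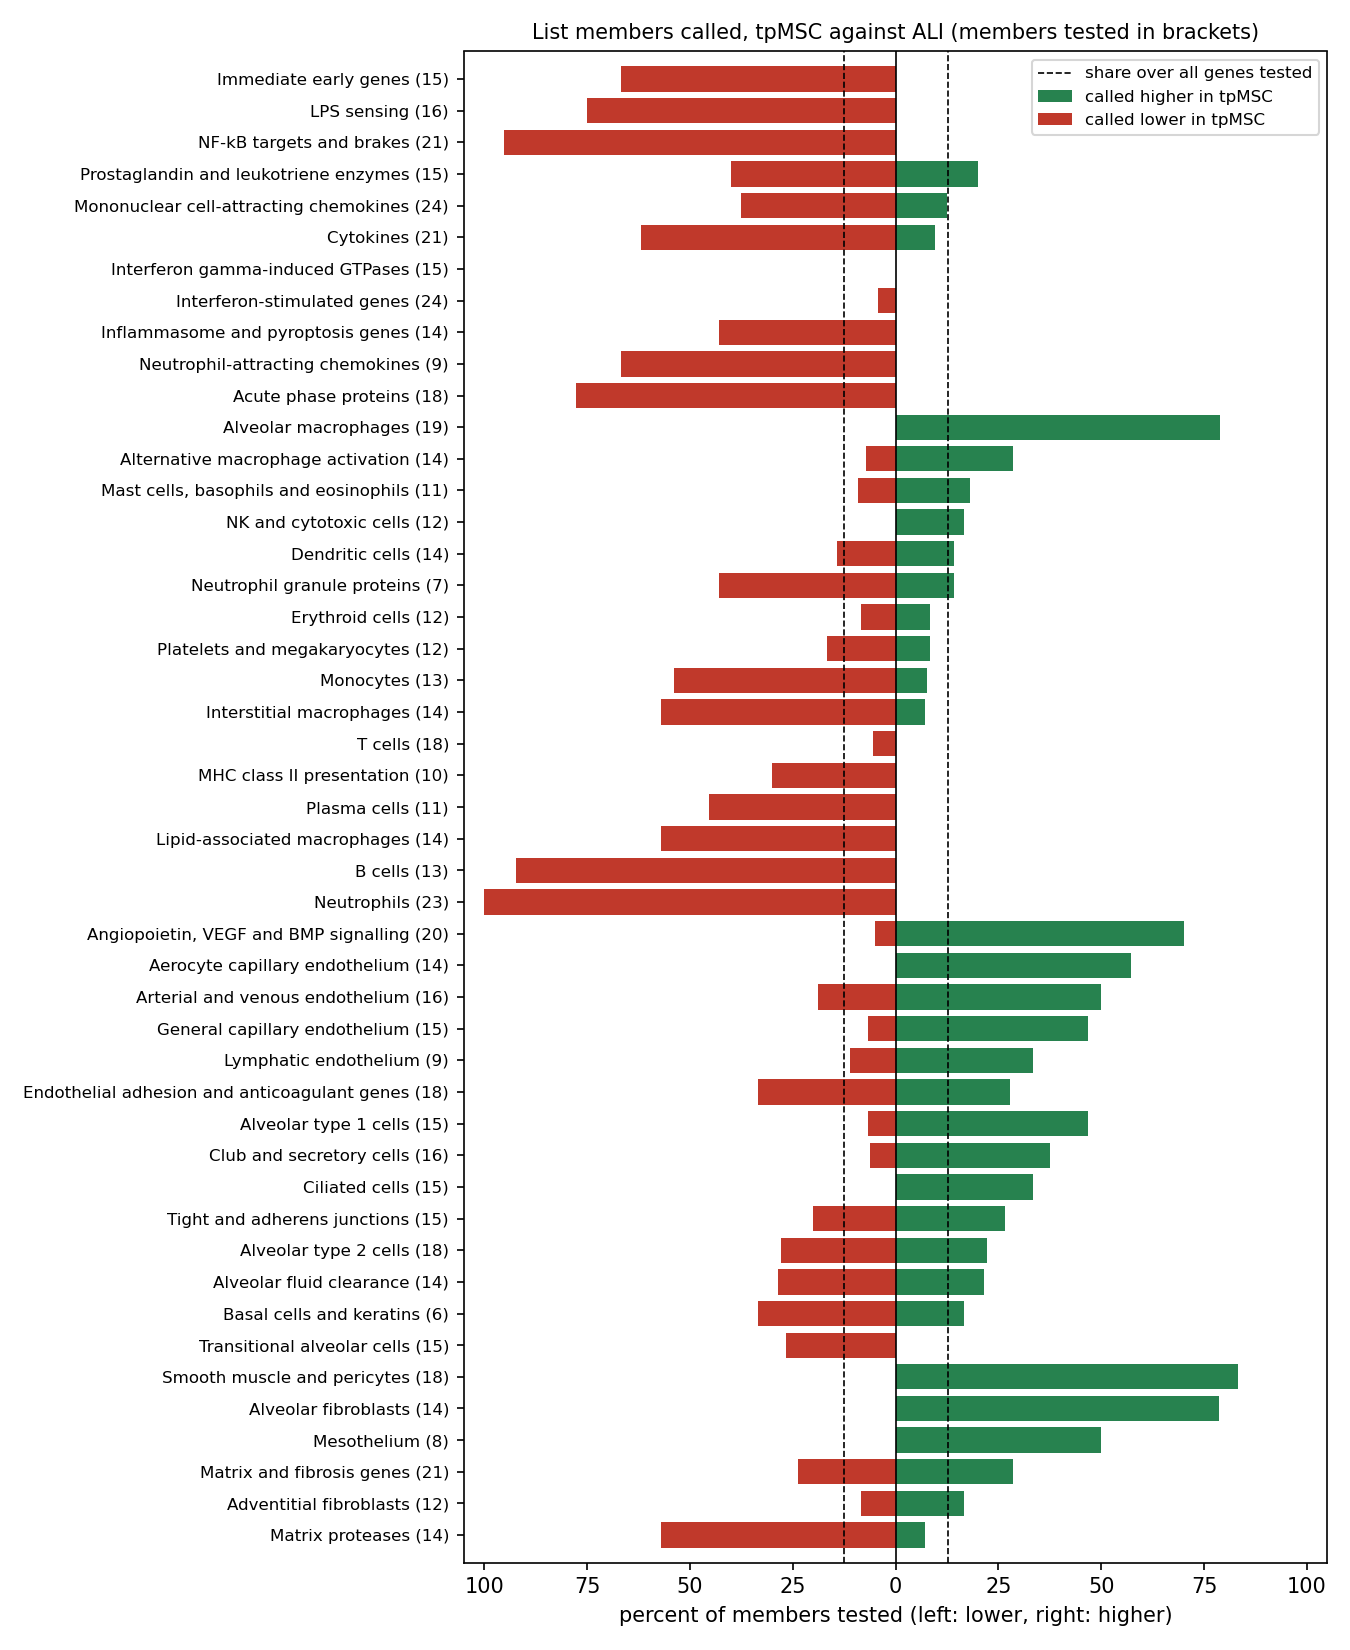
Percent of the tested members of each gene list that fell (bars to the left) or rose (bars to the right) in tpMSC against ALI. Dashed lines mark the share over all genes, 12.6% lower and 12.8% higher. Neutrophil, NF-kB and B cell lists lie almost wholly to the left, and smooth muscle, alveolar fibroblast and alveolar macrophage lists to the right.

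Genes of hypoxia, glycolysis, antioxidant defence and iron handling fell more often than they rose. Of 25 hypoxia target genes, 13 fell and 2 rose. Hif1a is an oxygen-regulated transcription factor that LPS also induces. It stood at 55.3, 49.6 and 63.8 FPKM in ALI and 17.3, 17.1 and 26 in tpMSC (log2 fold change -1.50 ± 0.15 SE, adjusted p = 8.31e-05). Its target Ankrd37 fell by 2.15 on the log2 scale. Of 16 glycolysis genes, 10 fell and 1 rose, the falls led by the lactate exporter Slc16a3 at 20.6, 18.4 and 23 in ALI and 4.38, 4.5 and 5.09 in tpMSC (log2 fold change -2.17 ± 0.15 SE, adjusted p = 1.31e-05). NRF2 antioxidant genes fell in 10 of 15 (6 without tpMSC replicate 1) and rose in 1 (0 without any 1 library), the falls including the cystine importer Slc7a11 (-3.44) and haem oxygenase Hmox1 (-1.73). Nqo1, a standard target of that factor, was at 1.49, 1.88 and 1.96 in ALI and 1.69, 2.35 and 1.8 in tpMSC (adjusted p = 0.781). Iron handling genes fell in 9 of 11 and rose in 1, the falls including the phagosomal metal transporter Slc11a1 (-2.44) and ferritin heavy chain Fth1 (-1.06), and metallothionein and zinc genes fell in 5 of 8 and rose in 1, with Mt2 at 175, 179.9 and 168 in ALI and 40.3, 42.9 and 54.3 in tpMSC (log2 fold change -1.95 ± 0.15 SE, adjusted p = 2e-05). Of 13 genes for enzymes of itaconate, arginine and tryptophan, 6 fell. Acod1, which makes itaconate in LPS-activated macrophages, stood at 163, 202 and 184 in ALI, 4.36, 2.51 and 27.7 in tpMSC and at most 0.08 in Control (log2 fold change -4.01 ± 0.75 SE, adjusted p = 0.00257; ENSMUSG00000022126, GRCm38 chromosome 14, 103046977 to 103056573), and nitric oxide synthase Nos2 and arginase Arg2 fell by 2.21 and 1.96. tpMSC replicate 3 was the highest of its group for Acod1.

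Prostaglandin and leukotriene enzymes fell in 6 of 15 and rose in 3, against 12.6% and 12.8% of all genes. Cyclooxygenase 2 (Ptgs2) and the prostaglandin E synthase Ptges fell by 1.49 and 1.93, while leukotriene C4 synthase (Ltc4s) rose from 1.00, 1.49 and 1.31 in ALI to 8.75, 9.79 and 4.04 in tpMSC (log2 fold change 2.52 ± 0.51 SE, adjusted p = 0.00392). Factors that MSC are known to release cannot be assigned to a cell in whole lung. Of 18 such genes 7 fell and 2 rose (0 without ALI replicate 1 or tpMSC replicate 2). Tnfaip6, an anti-inflammatory hyaluronan binder, stood at 3.46, 3.48 and 5.74 in ALI and 1.3, 1.34 and 1.97 in tpMSC (log2 fold change -1.48 ± 0.30 SE, adjusted p = 0.00382). Angpt1, the Tek ligand that stabilises vessels, was among the risers (0.68), a call lost without ALI replicate 1, ALI replicate 3, tpMSC replicate 1 or tpMSC replicate 2 (adjusted p up to 0.0665). Growth factors of epithelial repair rose in 2 of 18 and fell in 5 (3 without ALI replicate 1, ALI replicate 2, tpMSC replicate 1 or tpMSC replicate 2), with Ereg at -2.83, Hbegf at -0.79 and Nrg2 at 1.78. Of 14 genes for the clearance of dead cells, 5 fell and 5 rose (3 without ALI replicate 1, ALI replicate 2, ALI replicate 3, tpMSC replicate 2 or tpMSC replicate 3). The bridging molecules Gas6 and Mfge8 rose by 1.18 and 0.73. Xenobiotic enzymes rose in 7 of 15, with Gstm1 at 1.17 and Ephx1 at 1.12, while Cyp1b1 fell by 2.58. Of 15 glucocorticoid-responsive genes, 5 fell and 2 rose (1 without any 1 library other than tpMSC replicate 3, and 3 without that library), with a median log2 fold change of -0.02. Among those that fell were Angptl4 (-1.57) and Cebpd (-1.42), while the standard targets Fkbp5 and Tsc22d3 did not pass the test (adjusted p = 0.41 and 0.0533). Clock genes showed 2 lower and 4 higher of 16 (1 without ALI replicate 3, tpMSC replicate 1 or tpMSC replicate 2 and 2 without ALI replicate 1 or ALI replicate 2). Heat shock chaperones rose in 3 of 11 (5 without tpMSC replicate 1, and 2 without any other 1 library). The number was 8 with only the libraries compared in the fit, 9 with limma-voom and quality weights and 2 with no low-count filter. For all 11 genes every tpMSC library lay above every ALI library, against 22.4% of all genes. Hspb1 stood at 29.4, 36.5 and 33 in ALI and 72.2, 132 and 83.9 in tpMSC (log2 fold change 1.52 ± 0.26 SE, adjusted p = 0.00143). Hspa1a stood at 13.3, 22 and 16.7 in ALI and 36.8, 101 and 64.2 in tpMSC (adjusted p = 0.0631), with a wide spread within tpMSC.

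The other lists are to be read beside 12.8% higher and 12.6% lower over all genes. Of 47 list counts of 1 or 2 rises or falls, 33 were lower without at least 1 library. None of 25 cell cycle genes passed edgeR's test, 2 had an unadjusted p under 0.05, and the number of lower members was 5 without tpMSC replicate 3 and 1 with DESeq2. Mki67, the proliferation marker, was at 7.06, 10.4 and 8.57 FPKM in ALI and 6.96, 4.54 and 8.94 in tpMSC, against 1.84 to 2.01 in Control. Of 17 unfolded protein response genes 1 rose, of 18 oxidative phosphorylation genes 1 fell, and of 9 mitochondrially encoded genes 1 rose. Of 16 ribosomal protein genes 6 fell (2 without ALI replicate 1 and 3 without tpMSC replicate 1, tpMSC replicate 2 or tpMSC replicate 3), Rps2 by 0.72 and the others by less. Cholesterol and fatty acid genes showed 2 rises and 2 falls of 20 (0 without ALI replicate 1, ALI replicate 2, ALI replicate 3, tpMSC replicate 1 or tpMSC replicate 2), p53 targets 2 rises and 4 falls of 14, and nuclear-retained RNA 3 rises (0 without ALI replicate 1, tpMSC replicate 1 or tpMSC replicate 2 and 1 without ALI replicate 3) and 1 fall of 10. Of genes of nerve, skeletal muscle and thymus, 2 of 6, 2 of 6 and 1 of 2 rose. Without any 1 library these counts were 0 or 1, 1 and 0. The summed levels of all listed members, tested or not, were at most 8.16, 5.33 and 7.15 FPKM in tpMSC. Genes of other tissues in the chest varied from library to library. The summed level of 11 cardiac muscle genes was 16, 15.8 and 21.9 FPKM in ALI and 19.1, 33.2 and 73.5 in tpMSC. That of 9 adipose genes was 8.44, 6.88 and 15.8 in ALI and 10.9, 11.2 and 37.9 in tpMSC. In both lists tpMSC replicate 3 was the highest of the 6 libraries. The part of these tissues in the other results was not tested.

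The tpMSC libraries were also set against the 3 MSC libraries, since both groups share the injury and received cells. Of 21404 genes tested, 6 differed (0.028%), 3 higher (0.014%) and 3 lower (0.014%) in tpMSC. Gja4, the arterial connexin, stood at 26.5, 27.7 and 29.3 FPKM in MSC and 39.2, 45.9 and 50.5 in tpMSC (log2 fold change 0.73 ± 0.10 SE, adjusted p = 0.0431). Id1, a target of BMP signalling, stood at 49, 45.8 and 50.2 in MSC and 79.4, 81.1 and 66.9 in tpMSC (log2 fold change 0.67 ± 0.09 SE, adjusted p = 0.0431; ENSMUSG00000042745, GRCm38 chromosome 2, 152736251 to 152737410), and Bcl6b, an endothelial transcription factor, at 14.7, 16.3 and 15.4 in MSC and 21, 24.8 and 25 in tpMSC (log2 fold change 0.63 ± 0.09 SE, adjusted p = 0.0444; ENSMUSG00000000317, GRCm38 chromosome 11, 70224128 to 70229798). None of the 3 genes overlapped between the groups. Against ALI, Bcl6b did not pass the test, at 24.1, 22.6 and 25.2 (log2 fold change -0.04, adjusted p = 0.76). Pla2g7, the macrophage phospholipase that degrades platelet-activating factor, stood at 30.5, 45.6 and 37.2 in MSC and 17.5, 15.9 and 20.4 in tpMSC (log2 fold change -1.05 ± 0.14 SE, adjusted p = 0.0431; ENSMUSG00000023913, GRCm38 chromosome 17, 43568098 to 43612201), and at 69.2, 76.4 and 76.7 in ALI. The other 2 lower genes were immunoglobulin light chain variable segments, which have close copies. At an unadjusted p under 0.05 edgeR gave 2810 genes, and DESeq2 called 652 at its adjusted threshold. With the replicate block, in a fit of only these libraries and with no filter on low counts edgeR called 0, so that every call named here was lost, while 2737, 1795 and 3262 genes had an unadjusted p under 0.05. edgeR called 428 genes without tpMSC replicate 3, 118 without MSC replicate 1, 69 without MSC replicate 2, 15 without MSC replicate 3, 2 without tpMSC replicate 1 and 0 without tpMSC replicate 2 (1758 at an unadjusted p under 0.05). Neutrophil chemokine levels lay on the same side of ALI in both groups: Cxcl2 stood at 14, 18.4 and 10.3 in MSC beside 6.32, 5.09 and 15.3 in tpMSC, and Cxcl1 at 29, 28 and 58.1 beside 12.7, 19.1 and 42.2. Neither differed at an adjusted p under 0.05 between MSC and tpMSC (adjusted p = 0.467 and 0.539).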

How the data were processed

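Bulk lung RNA was sequenced with paired ends in 12 libraries. The authors deposited whole-number read counts and FPKM per gene side by side in 1 table, per the file headers. Per the submitters' processing notes the build was GRCm38 and the tools were StringTie 1.3.4d, HISAT2 2.0.4 and cutadapt 1.9 besides edgeR and DESeq2, and the labels' protocols name oligo(dT) selection and dUTP strand marking. Whether counting used strand is not given in the sources used here.

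Genes were kept by edgeR's filterByExpr on the libraries compared. Counts were scaled by TMM and fitted with edgeR 4.0.16 (R 4.3.3) by glmQLFit with 1 mean per group over all 12 libraries, so that the groups share 1 estimate of the spread, and contrasts were tested by glmQLFTest with Benjamini-Hochberg adjustment. DESeq2 1.42.0 and limma 3.58.1 served as alternatives. Precision is limited by 3 libraries per group. Replicates of 1 group differed by chi-squares of 19.1 to 123.3 per gene in the 12 pairs of the 4 groups, so no pair agreed within sampling noise.

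Gene positions came from GENCODE M21 (GRCm38) by Ensembl identifier, with 35571 of 38349 genes matched. The deposited start and end equalled them for 670 genes and were not used. Promoters came from RefSeq (GRCm38.p6), and the first listed was kept for each gene symbol.

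The comparison and the 75 gene lists were chosen with earlier results of these data known. Genes were named by rule: the 15 largest rises and falls with no overlap between groups and a mean of 1 FPKM or more in either group, from each list the 4 members with the smallest p and the first 2 as written, and up to 5 rises and 5 falls against MSC. Predicted genes, pseudogenes and antigen receptor segments were left out of the largest changes. Tnf, Il18, Cxcl5, Tagln, Ltc4s, Cxcl9, Cxcl10, Ido1, Tslp, Eln and Pdgfra fell outside that rule and were chosen after their values were seen.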

Additional observations from a re-analysis of the deposited data

How the results depend on the processing

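The count of 5421 changed genes in tpMSC against ALI ranged from 4535 to 6293 under DESeq2, DESeq2 size factors, other low-count filters, limma on log2(FPKM + 1), a fit of the compared libraries only and the replicate block. With limma-voom and sample quality weights it was 8600 (4378 higher and 4222 lower), and 5347 of these were among the 5421. Leaving out 1 library gave 3505 to 5802 genes (1676 to 2738 higher, 1749 to 3064 lower), the fewest without tpMSC replicate 2 and 3603 without tpMSC replicate 1. The replicate block gave 5239 genes, 4988 of them shared. Deviations of same-numbered ALI and tpMSC libraries from their group means correlated at 0.023, -0.007 and 0.070. Their own number gave the best correlation for 2 of 6 libraries. With 3 libraries per group, this check cannot tell whether replicate numbers pair the samples.
Against MSC, the 6 genes became 652 with DESeq2, 25 with limma-voom and quality weights, 4 with DESeq2 size factors (25% higher, against 50%) and 0 to 428 without 1 library. edgeR called 0 with no filter, with only the libraries compared and with the replicate block, where 3262, 1795 and 2737 genes had an unadjusted p under 0.05. The cause was not tested.
Of 395 named genes, the replicate block ended the call of 9 and added 11, and leaving out 1 library ended between 22 and 53. Named genes that changed sign were Cxcl10, at -1.66 (adjusted p = 0.032) with limma-voom and quality weights and from -2.48 to 0.87 without 1 library (edgeR), and Cxcl9, from -2.26 to 1.40, both lowest without tpMSC replicate 3. The number of libraries, 3 per group, limits how small a change can be called.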
